A study of Mus musculus with 22 samples.

Results

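Interferon response genes are the genes that a cell switches on after an interferon has bound its receptor. The set described here holds 33 mouse genes, taken by gene symbol from the 46813 genes that are listed in all 3 deposited comparison tables, and every one of the 33 was found there. By role, the set has 4 transcription factors (Irf1, Irf7, Irf9 and Stat2), 4 sensors of foreign RNA and their helpers (Ddx58, Ifih1, Dhx58 and Trim25) and 17 antiviral effectors (Ifit1, Ifit2, Ifit3, Oas1a, Oas2, Oasl2, Rsad2, Mx1, Mx2, Bst2, Eif2ak2, Xaf1, Ifi44, Ifi27l2a, Ifi35, Rtp4 and Parp14). It also has 2 genes of the ISG15 system (Isg15 and Usp18), 5 GTPases best known for their induction by interferon gamma (Gbp2, Gbp3, Gbp7, Igtp and Irgm1) and 1 chemokine (Cxcl10). The rule used the symbols and no measured value, but the genes were chosen with earlier results of these data known.

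RNA was sequenced from ventricular cardiomyocytes of male mice, which were isolated with collagenase on a Langendorff system, with 1 library per mouse. CASK control mice (3 mice, 11 to 12.7 weeks old) carried MHC-Cre, in which the cardiac alpha-myosin heavy chain promoter drives Cre recombinase, and CASK KO mice (3 mice, 10.1 to 11.3 weeks) carried MHC-Cre and CASK fl/fl. SAP97 control mice (3 mice, 10.6 to 13 weeks) were SAP97 fl/fl without Cre, and SAP97 KO mice (3 mice, 10.7 to 13 weeks) carried MHC-Cre and SAP97 fl/fl. The methods of the study also call these controls Cre-negative and floxed, whereas its sequencing metrics list them as WT+Cre. The methods are followed here. All 4 of these groups were of mixed strain. MDX mice, which lack dystrophin, were MDX -/- (4 tested mice, 10.9 to 17.7 weeks), on C57Bl/6Ros except for replicate 5. MDX control mice were wild type (5 mice, 10.9 to 14.7 weeks), on C57Bl/6J or C57Bl/6 except for replicate 5, and both replicates 5 came from a mixed strain backcrossed on C57Bl/6. In the SAP97 line, Cre and the missing SAP97 therefore cannot be told apart, nor can strain, age and the missing dystrophin in the MDX line. Between the control groups of the 3 lines, Cre and strain differ as well. The labels name poly-A selection for wild type samples and depletion of ribosomal RNA for the others, whereas the methods of the study describe depletion only. Rpph1, the RNA of ribonuclease P that carries no poly-A tail, was at 1205 to 8370 CPM (counts per 1000000 counts) in the 5 MDX control libraries and at 2038 to 9413 CPM in the other 16.

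The 21 libraries tested held 24235276 to 42159185 read pairs in genes. MDX replicate 1 had 6025033 and was left out, except in 1 alternative for the MDX line. Within each line the targeted gene followed the labels in every library. In CPM, Cask was at 0.595 to 2.38 in CASK KO and 8.75 to 9.82 in CASK control, Dlg1, which encodes SAP97, at 11.0 to 13.6 in SAP97 KO and 55.3 to 66.2 in SAP97 control, and Dmd, which encodes dystrophin, at 76.4 to 126 in MDX and 235 to 328 in MDX control. Dmd was also low in CASK control, which has no lesion of that gene by its labels, at 42.1 to 50.3 CPM, below every MDX library. It was at 143 to 201 CPM in the knockouts of that line, and in the SAP97 line at 300.2 to 399.7 CPM in the controls and 168 to 196 CPM in the knockouts. All 3 CASK control libraries thus stand apart in this gene. The other groups with Cre, CASK KO and SAP97 KO, also lay below every library of SAP97 control and MDX control, which carry no Cre by the genotypes followed here. The part of Cre in these Dmd values, and the part of Dmd in the comparisons with these groups, was not tested. The 10 ventricular cardiomyocyte markers summed to 78300 to 139300 CPM in every library. Cells other than cardiomyocytes also left RNA in the preparations: 16 markers of macrophages and other leukocytes had median sums of 84.9 and 75.6 CPM in the control and knockout mice of the CASK line, 42.2 and 44.3 CPM in those of the SAP97 line, and 50.2 and 56.6 CPM in those of the MDX line. Fewer cells of a type and less RNA per cell cannot be told apart in such bulk samples.

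Interferons alpha and beta bind the receptor of Ifnar1 and Ifnar2, and interferon gamma binds that of Ifngr1 and Ifngr2. Janus kinases at the receptor then phosphorylate STAT proteins. A complex that holds STAT2 and IRF9 binds the interferon-stimulated response element (ISRE), and the response to interferon gamma runs largely through another motif, the gamma-activated site (GAS). Most cells hold a low, tonic level of these genes without infection, and in the heart the response is known for restraining viruses that infect cardiomyocytes, such as coxsackieviruses.

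The 250 bases before the start of transcription were read in RefSeq promoters of GRCm38.p6, where 25 of the 33 genes had an entry. The ISRE core, which is TTTC, any 2 bases and TTTC again on either strand, was found for 13 of the 25 genes (52.0%) and for 936 of all 27025 genes with a promoter (3.46%). The GAS, TTCNNNGAA on either strand, was found for 7 of the 25 genes (28.0%) and for 8.13% of all genes. These are matches of letters, counted also where cores overlap. In Bst2 a GAS overlaps the first ISRE core. Stretches of 60 bases are shown for genes on which the results below turn, and for Isg15, Ifit1, Ifit3 and Irf1 as textbook targets of interferon. Capitals mark the ISRE cores, and for Ifit2 and Irf1, in whose promoters no ISRE core was matched, the GAS. They lie at chr4:156200850-156200909 on the minus strand for Isg15, chr19:34640779-34640838 on the plus strand for Ifit1, chr19:34550444-34550503 on the plus strand for Ifit2, chr19:34583382-34583441 on the plus strand for Ifit3, chr12:26456538-26456597 on the minus strand for Rsad2, chr8:71537562-71537621 on the minus strand for Bst2 and chr11:53769898-53769957 on the plus strand for Irf1, each written 5′ to 3′ on the strand of its gene:
Isg15: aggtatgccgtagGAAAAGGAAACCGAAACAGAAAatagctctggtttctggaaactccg
Ifit1: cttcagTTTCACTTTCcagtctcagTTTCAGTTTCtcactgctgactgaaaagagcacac
Ifit2: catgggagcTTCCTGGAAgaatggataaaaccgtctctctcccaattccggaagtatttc
Ifit3: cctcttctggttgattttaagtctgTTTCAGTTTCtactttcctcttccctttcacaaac
Rsad2: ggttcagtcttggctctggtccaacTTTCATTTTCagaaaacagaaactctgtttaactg
Bst2: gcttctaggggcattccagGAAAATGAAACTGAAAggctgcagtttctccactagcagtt
Irf1: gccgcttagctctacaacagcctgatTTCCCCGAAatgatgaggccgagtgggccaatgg

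Isg15 had 3 overlapping ISRE cores 66 to 78 bases before its start, the densest run among these 7 stretches. Bst2 had overlapping cores at 124 and 130 bases, and Ifit1 had separate cores at 85 and 104 bases. Rsad2 had a single core 120 bases before its start. In Ifit2 the only match was a GAS 241 bases before the start, although its neighbours Ifit1 and Ifit3 both held ISRE cores. The 3 Ifit genes lie within 99.3 kb of chromosome 19 (GRCm38, 34550694 to 34650009), the 3 Gbp genes within 108 kb of chromosome 3 (142530342 to 142638008), Oas1a and Oas2 within 177 kb of chromosome 5 (120730333 to 120907521) and Mx1 and Mx2 within 114 kb of chromosome 16 (97447035 to 97560900). Copies of a family can share reads, so that the values of Ifit3, Oas1a and the Gbp genes are uncertain where a near-identical paralogue exists. Irf9, Igtp, Rtp4, Parp14 and Gbp7 overlap another annotated gene on the same strand.

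Ventricular cardiomyocytes held these RNAs at low levels. In TPM (transcripts per 1000000 transcripts), which were computed from the counts and the exon length so that genes can be compared with each other, 21 of the 33 genes had a mean of at least 1 TPM over the 21 libraries and 12 had less. The highest was Ifi27l2a, a small membrane protein induced by interferon alpha, at a mean of 16.9 TPM with a range of 6.41 to 36.5 TPM. Next came Bst2, which encodes tetherin, the protein that holds enveloped viruses at the cell surface, at 10.5 TPM (2.76 to 18.7), and Igtp, a GTPase that acts on the vacuoles of intracellular parasites, at 5.54 TPM (2.46 to 15.4). The lowest were Mx1 at 0.0347 TPM, Cxcl10, which attracts activated T cells, at 0.144 TPM, and Dhx58, a helper of the RNA sensors, at 0.208 TPM. Mx1 encodes a GTPase against influenza viruses that is defective in C57Bl/6 mice. It had 0 to 11 counts per library, 50 in all, and did not pass the filter on low counts in any comparison.

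The CPM, which compare a gene between libraries, of Ifi27l2a were 6.60, 7.49 and 3.42 in CASK control, 5.56, 9.38 and 3.81 in CASK KO, 2.63, 1.63 and 3.48 in SAP97 control and 2.24, 1.87 and 3.59 in SAP97 KO. Those of Igtp were 5.11, 6.39 and 7.07 in CASK control, 4.57, 6.66 and 5.84 in CASK KO, 8.27, 5.63 and 7.58 in SAP97 control and 4.93, 5.93 and 5.002 in SAP97 KO. For both genes knockout and control overlapped in both lines. Dhx58 was at 0.357, 0.273, 0.683, 0.441 and 0.394 CPM in MDX control, 0.430, 0.413, 0.269 and 0.612 in MDX, 0.227, 0.283 and 0.405 in SAP97 KO and 0.439, 0.661 and 0.351 in CASK KO. Cxcl10 was at 0.165, 0.0896 and 0.163 CPM in CASK control, 0.103, 0.238 and 0.0270 in CASK KO, 0.215, 0.344, 0.179 and 0.612 in MDX and 0.0972, 0.0707 and 0.145 in SAP97 KO. Such levels stand for a few counts in a library. Mx1 had 3, 1 and 2 counts in CASK control, 5, 11 and 5 in CASK KO, 3, 0 and 0 in SAP97 control, 2, 1 and 3 in SAP97 KO, 0, 3, 0, 3 and 1 in MDX control and 1, 0, 5 and 1 in MDX.

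**Figure D1:**
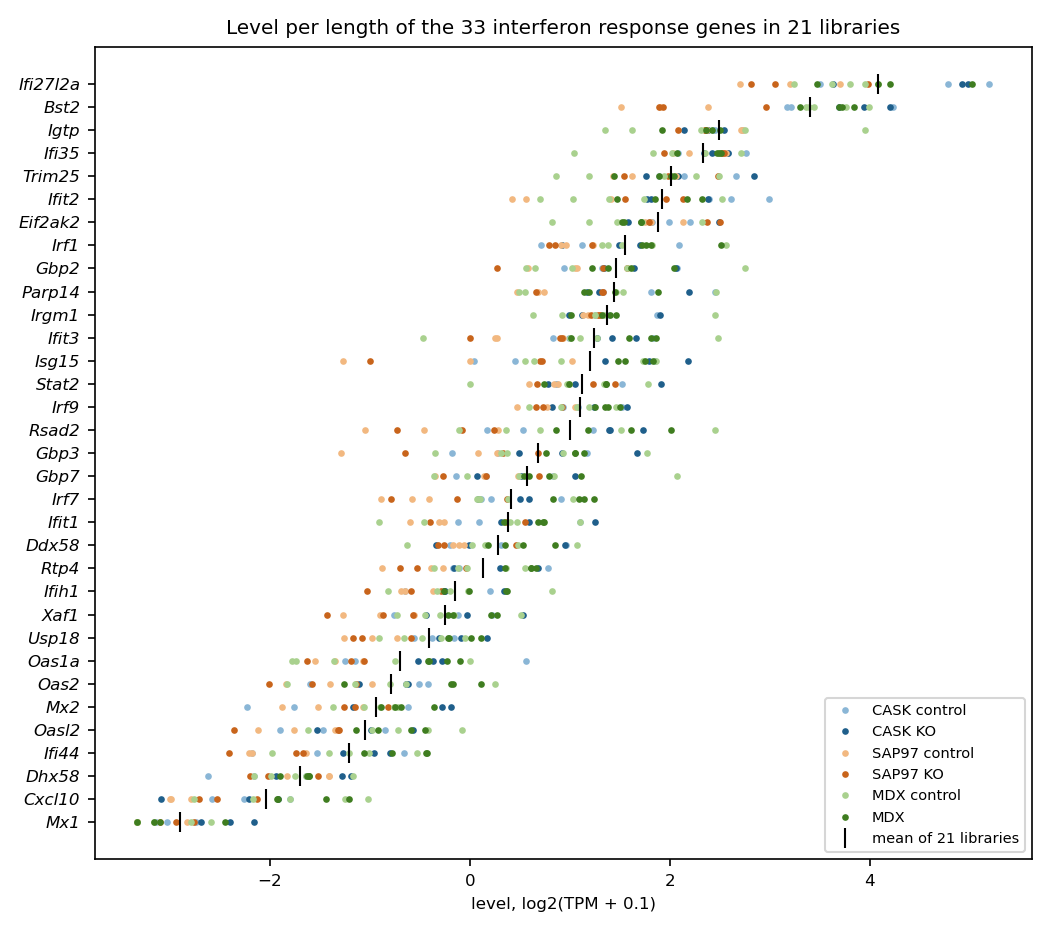
Level of each of the 33 interferon response genes in each of 21 libraries (points, coloured by group) on a log2 axis of TPM, with the mean over the libraries as a vertical bar. The genes run from Ifi27l2a, with a mean of 16.9 TPM, to Mx1, with a mean of 0.0347 TPM.

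By role, the transcription factors had means of 1.23 TPM (Irf7) to 2.83 TPM (Irf1). Irf9 and Stat2, which are parts of the complex that binds the ISRE, were at 2.05 and 2.07 TPM. Among the sensors, Trim25, the ubiquitin ligase that aids RIG-I, was at 3.93 TPM, Ddx58, which encodes RIG-I itself, at 1.11 TPM and Ifih1, which encodes MDA5, at 0.804 TPM. The means of the antiviral effectors spanned the whole range of the set: Eif2ak2, the kinase PKR that halts translation on double-stranded RNA, was at 3.58 TPM, whereas Oasl2, Oas2 and Oas1a of the oligoadenylate synthetase family were at 0.383 to 0.519 TPM. Isg15, the ubiquitin-like modifier, was at 2.201 TPM and its protease Usp18 at 0.654 TPM. The 5 GTPases lay between 1.39 TPM (Gbp7) and 5.54 TPM (Igtp).

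Upstream of these genes, the receptors were measured and the listed interferons nearly absent. Interferon genes outside the list were not looked up. Of 11 listed interferon genes with counts in the 1 fit of all groups, 6 (Ifna1, Ifna2, Ifna4, Ifna5, Ifnl2 and Ifnl3) had 0 counts in all 21 libraries. This allows a level of up to 0.00443 CPM (3 counts in the 21 libraries together, counting error only). Ifnb1 and Ifng had 6 counts each over the 21 libraries, and Ifnk, Ifnab and Ifne had 3, 1 and 1. In contrast, the receptor genes had means of 3.93 TPM for Ifnar1, 2.94 TPM for Ifnar2, 10.1 TPM for Ifngr1 and 64.7 TPM for Ifngr2. Il10rb, a chain that the receptors of interferon lambda and interleukin 10 share, was at 17.9 TPM and Ifnlr1, its partner for interferon lambda, at 1.33 TPM. Plasmacytoid dendritic cells are the cells best known for making interferon alpha. Of 3 listed markers of these cells only 2 were measured, and they summed to at most 0.260 CPM in any library.

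Across the libraries the set was lowest in the SAP97 line. Of the 33 genes, 29 had their lowest group mean in a SAP97 group, 17 in SAP97 control and 12 in SAP97 KO, and for 24 both SAP97 groups lay below the other 4 groups. The highest group mean lay in an MDX group for 21 genes, in 19 of them in MDX mice, and in a CASK group for 10. The order of the groups was not computed for all genes, so how far these counts are particular to the set is not known. As a summary per library, each gene's deviation from its own mean over the 21 libraries was taken on the log2 scale of CPM with 0.5 added, and the median over the 33 genes was formed. These medians were -0.66 to -0.15 in SAP97 control and -0.54 to -0.24 in SAP97 KO, all 6 below those of the other 15 libraries. They were -0.09 to 0.04 in CASK control, 0.06 to 0.37 in CASK KO, -0.07 to 0.23 in MDX control and 0.11 to 0.54 in MDX. In SAP97 control 2 none of the 33 genes lay above its own mean, whereas 30 did in MDX 5.

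**Figure D2:**
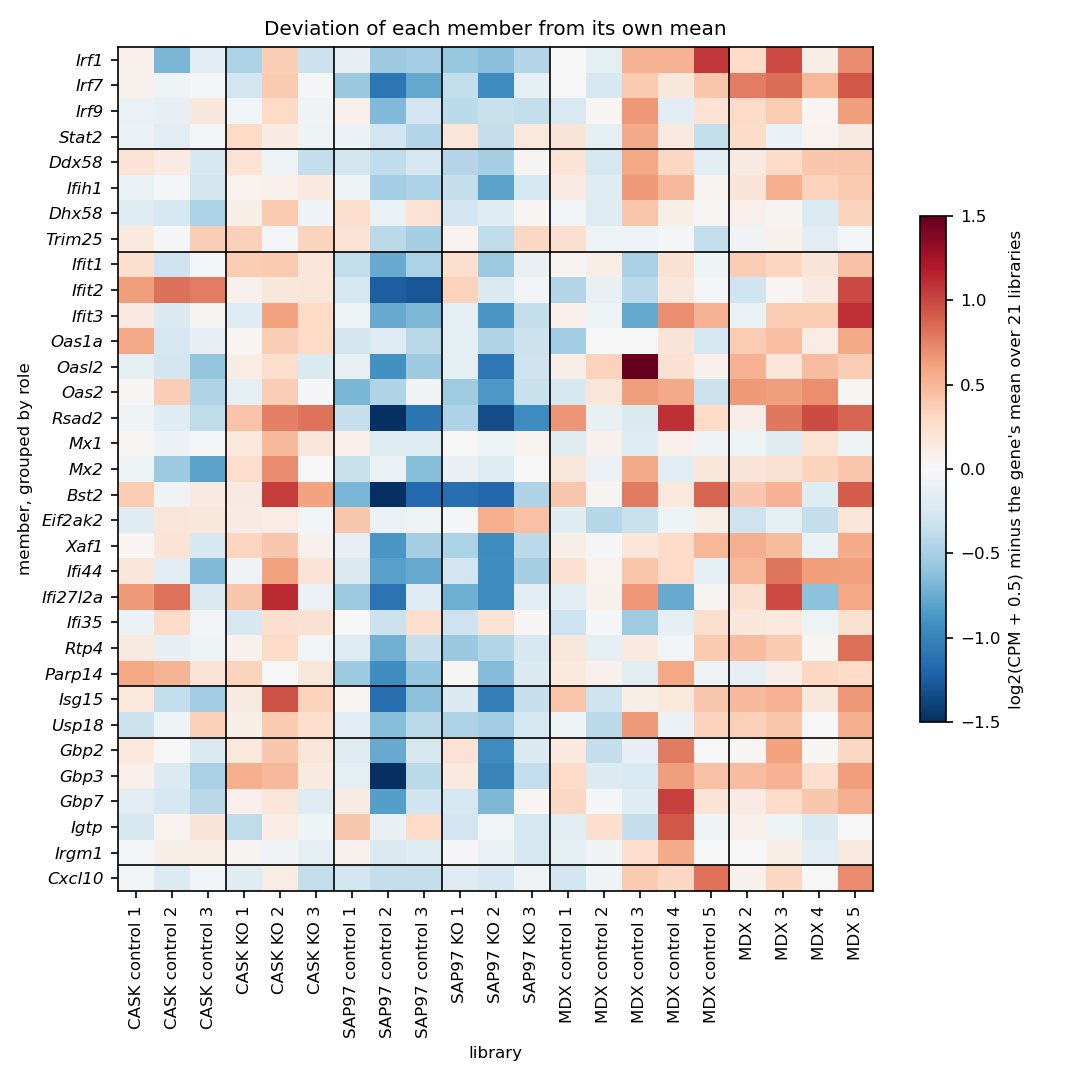
Deviation of each gene (rows, grouped by role) from its own mean in each of 21 libraries (columns, grouped by line and genotype), as log2(CPM + 0.5), with colours that end at 1.5 in either direction. The 6 SAP97 libraries are mostly blue, with medians of -0.66 to -0.15, and MDX 5 is mostly red, with a median of 0.54.

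The first question was whether the level of these genes differed between the lines without a knockout. Parp14 and Ifit2 were higher in CASK control than in SAP97 control, and both passed the test (edgeR quasi-likelihood F test in 1 fit of the 6 groups, Benjamini-Hochberg over all genes tested, called at an adjusted p of 0.01). Parp14 encodes an ADP-ribosyltransferase, and its CPM were 19.6, 18.7 and 14.9 in CASK control and 8.74, 6.57 and 8.51 in SAP97 control. Ifit2 encodes a protein with tetratricopeptide repeats that acts on viral RNA, and its CPM were 12.0, 13.9 and 13.3 in CASK control and 6.27, 2.96 and 2.85 in SAP97 control. For both genes all CASK control libraries lay above all SAP97 control libraries. The log2 fold change of Parp14 was 1.16 (SE, the standard error, 0.21, edgeR adjusted p = 0.00267) and that of Ifit2 was 1.70 (SE 0.32, edgeR adjusted p = 0.00312).

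These 2 calls compare with 1.68% of all genes called in this comparison, 1.22% in this direction. Of the 32 genes of the set that were tested, 28 had a log2 fold change above 0 (50% of all genes) and 4 below, with a median of 0.51, where the median of all genes was 0.00. At an unadjusted p under 0.05, 8 were higher in CASK control (8.96% of all genes) and 1 was lower (5.88% of all genes). The groups did not overlap for 8 genes with the higher level in CASK control (13% of all genes) and for 1 with the lower level (10.1%). By role, 14 of 16 antiviral effectors, all 4 transcription factors and both ISG15 genes had a log2 fold change above 0, and all but 1 of the 8 genes at an unadjusted p under 0.05 were antiviral effectors, Irf7 being the other.

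Bst2 and Irf7 lay between the called genes and the rest. Tetherin's gene Bst2 was at 6.57, 4.75 and 5.43 CPM in CASK control and 2.88, 1.37 and 1.92 CPM in SAP97 control, a log2 fold change of 1.44 (SE 0.34, edgeR adjusted p = 0.0202). It was called by DESeq2 (adjusted p = 0.00204; 1.7% of all genes with a p by that tool), with the replicate number as a block (edgeR, adjusted p = 0.00944; 2.11% of all genes) and without the filter on low counts (edgeR, adjusted p = 2.62e-04; 1.5% of all genes). In this fit the block joins same-numbered mice of different lines, for which no pairing is known. Irf7, the factor that amplifies the interferon response, was at 2.62, 2.36 and 2.45 CPM against 1.54, 0.911 and 1.26 CPM, a log2 fold change of 1.00 (SE 0.29, edgeR adjusted p = 0.0576). Neither gene's groups overlapped. Dhx58 went the other way, at 0.283, 0.239 and 0.136 CPM in CASK control and 0.564, 0.325 and 0.530 CPM in SAP97 control (log2 fold change -1.09, SE 0.45, edgeR adjusted p = 0.230).

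Markers of other cell types moved with these values. Between CASK control and SAP97 control, 14 of 14 tested leukocyte markers had a log2 fold change above 0, 10 of them at an unadjusted p under 0.05, with a median of 1.03. All 7 fibroblast markers did so too, with a median of 0.72, and among the mural markers Acta2 (log2 fold change 2.67) and Cspg4 (1.43) were called. Of the 10 ventricular cardiomyocyte markers, 8 had a log2 fold change below 0, with a median of -0.29. The part of these markers in the values of the interferon response genes was not tested. Leaving out single mice ended both calls: without CASK control 1 the adjusted p was 0.0137 for Ifit2 and 0.0253 for Parp14, without CASK control 2 it was 0.0170 for both, without SAP97 control 2 it was 0.0305 and 0.0274, and without SAP97 control 3 it was 0.0294 and 0.0122 (edgeR). Parp14 was also not called when only the 3 control groups were fitted (edgeR, adjusted p = 0.0148). The median log2 fold change of 0.51 became 0.28 without CASK control 1 and 0.31 without SAP97 control 2, and the 8 genes at an unadjusted p under 0.05 became 4 without SAP97 control 2.

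**Figure D3:**
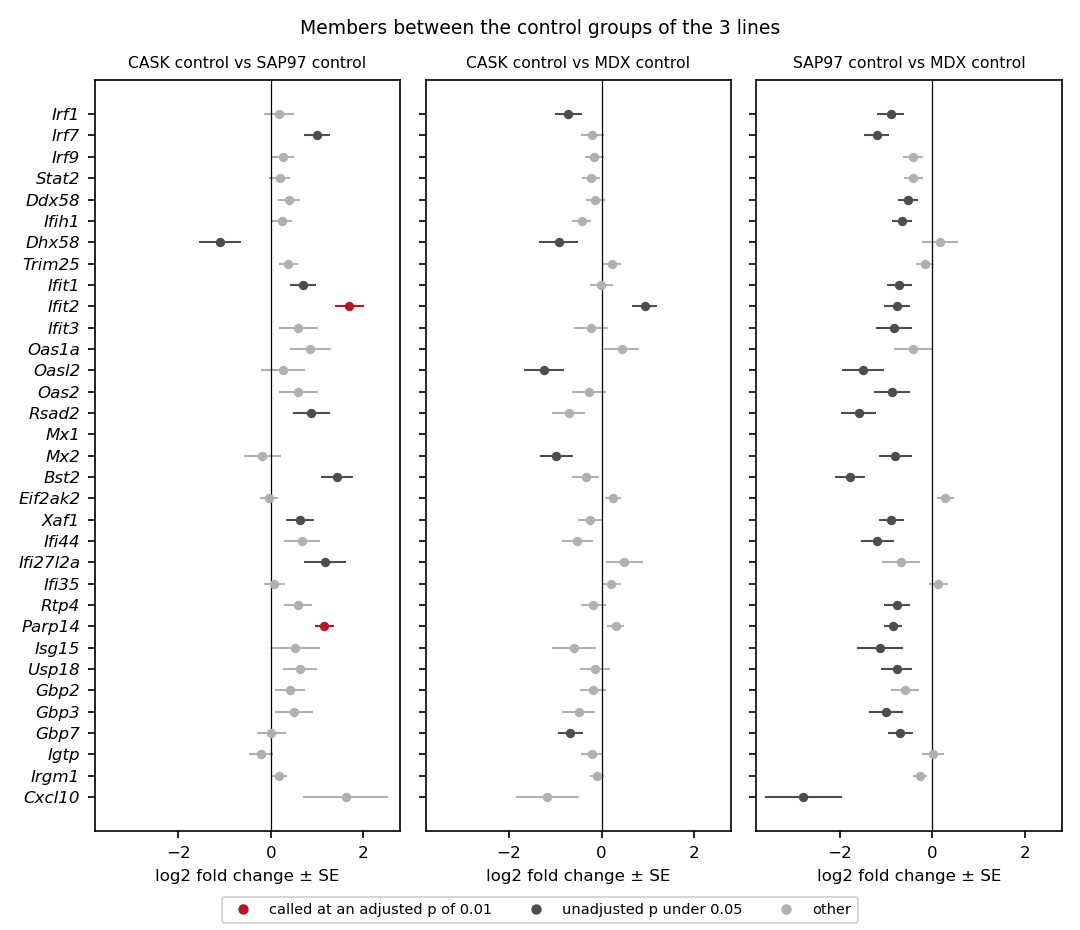
Log2 fold change of each tested gene (rows, grouped by role) between the control groups of the 3 lines, with standard errors as bars. Red points were called at an adjusted p of 0.01, which were Parp14 and Ifit2 in CASK control against SAP97 control, and dark grey points had an unadjusted p under 0.05.

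Between SAP97 control and MDX control, edgeR called no gene of the set (0 of 32 tested, against 0.0701% of all genes). In SAP97 control, 28 genes had a log2 fold change below 0 and 4 above (46.5% of all genes above), with a median of -0.77, against -0.03 for all genes. Lower in SAP97 control at an unadjusted p under 0.05 were 21 of them, compared with 6.26% of all genes, and higher were 0, compared with 2.74% of all genes. These 21 were 12 antiviral effectors, both ISG15 genes, 2 transcription factors (Irf1 and Irf7), 2 sensors (Ddx58 and Ifih1), 2 GTPases (Gbp3 and Gbp7) and Cxcl10. The groups did not overlap for 9 genes, all lower in SAP97 control (2.82% of all genes).

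Bst2 stood first among them. It was at 6.70, 5.07, 8.83, 5.54 and 9.47 CPM in MDX control, every library above the highest SAP97 control library at 2.88 CPM, with a log2 fold change of -1.78 (SE 0.32, edgeR adjusted p = 0.0216). Rsad2 encodes viperin, an enzyme that makes a chain terminator of viral RNA synthesis. Its CPM were 3.01, 0.911 and 1.59 in SAP97 control and 6.58, 3.64, 3.36, 9.07 and 4.995 in MDX control, and the log2 fold change was -1.59 (SE 0.37, edgeR adjusted p = 0.129). The groups did not overlap, but SAP97 control 1 lay close to the lowest MDX control library.

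Irf7 was at 2.50, 2.03, 3.42, 2.86 and 3.51 CPM in MDX control, all above SAP97 control (log2 fold change -1.20, SE 0.27, edgeR adjusted p = 0.0954). Parp14 was at 14.4, 13.6, 11.5, 19.6 and 12.4 CPM in MDX control, likewise all above SAP97 control (log2 fold change -0.85, SE 0.19, edgeR adjusted p = 0.112). Oasl2, an oligoadenylate synthetase-like gene, was at 1.43, 1.79, 5.07, 1.61 and 1.40 CPM in MDX control and 1.16, 0.455 and 0.728 CPM in SAP97 control, with MDX control 3 far above the rest. Cxcl10 had the largest log2 fold change of the set in this comparison, -2.79 (SE 0.83, edgeR adjusted p = 0.289), from 0.0596, 0.152, 0.399, 0.346 and 0.701 CPM in MDX control and 0.0627, 0.0325 and 0.0331 CPM in SAP97 control, and its groups overlapped. It had 1 to 17 counts per library.

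DESeq2 called 4 of these genes, Bst2 (adjusted p = 2.25e-05), Irf7 (0.00484), Rsad2 (0.00538) and Parp14 (0.00981), where it called 0.127% of all genes with a p. Without the filter on low counts edgeR called Bst2 (adjusted p = 4.34e-06) and Rsad2 (adjusted p = 2.41e-04), where it called 0.239% of all genes. Without SAP97 control 2, the library with the lowest values of the set, the 21 genes became 11 and the median became -0.57. Beside these values, 13 of 14 tested leukocyte markers had a log2 fold change below 0 in SAP97 control (median -0.29, 0 at an unadjusted p under 0.05 in edgeR), as did all 7 fibroblast markers (median -0.67, 5 at an unadjusted p under 0.05) and all 9 endothelial markers (median -0.59, 4 at an unadjusted p under 0.05). All 10 ventricular cardiomyocyte markers had one above 0, with a median of 0.20. The part of these cells in the levels of the set was not tested.

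CASK control and MDX control were closer to each other for these genes. No gene of the set was called by edgeR (0 of 32 tested, against 1.86% of all genes) or DESeq2 (0), and 7 had a log2 fold change above 0 (46.4% of all genes) and 25 below in CASK control, with a median of -0.21, against -0.04 for all genes. At an unadjusted p under 0.05, 1 gene was higher in CASK control (10.2% of all genes) and 5 were lower (9.76% of all genes). Each of the 2 directions had 1 gene without overlap (7.31% of all genes higher and 4.27% lower), Ifit2 and Oasl2. Ifit2 was the higher gene, at 5.48, 7.01, 5.64, 8.63 and 7.45 CPM in MDX control, all below the CASK control libraries (log2 fold change 0.93, SE 0.27, edgeR adjusted p = 0.0525). Without the filter on low counts Ifit2 was called (edgeR, adjusted p = 0.00248), in a fit that called 694 of 33094 genes. The lower ones were Oasl2 (log2 fold change -1.24, SE 0.43, edgeR adjusted p = 0.116), Mx2 (-0.98), Dhx58 (-0.93), Irf1 (-0.72) and Gbp7 (-0.67). Without MDX control 3 the value of Oasl2 was -0.74, and the 5 lower genes became 2 without CASK control 2 or CASK control 3 and 3 without MDX control 4. Of the leukocyte markers, 13 of 14 were higher in CASK control, with a median of 0.79, and Ptprc, the pan-leukocyte marker CD45, was called. Fibroblast markers were higher for 6 of 7, with a median of 0.22. All 9 endothelial markers were lower in CASK control, as most of the set was, with a median of -0.31. The part of these cells in the values of the set was not tested.

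Ifit2 and Parp14 were the 2 genes of the set with their highest group mean in CASK control. For Ifit2, from the highest mean to the lowest, CASK control was at 13.1 ± 0.971 CPM (SD, n = 3), MDX at 9.51 ± 4.24 (SD, n = 4), CASK KO at 8.43 ± 0.413 (SD, n = 3), SAP97 KO at 7.92 ± 1.735 (SD, n = 3), MDX control at 6.84 ± 1.31 (SD, n = 5) and SAP97 control at 4.03 ± 1.94 (SD, n = 3). CASK control did not overlap with any group but MDX, whose replicate 5 reached 15.7 CPM. CASK KO, SAP97 KO, MDX control and MDX overlapped or nearly touched each other in the middle of this order.

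**Figure D4:**
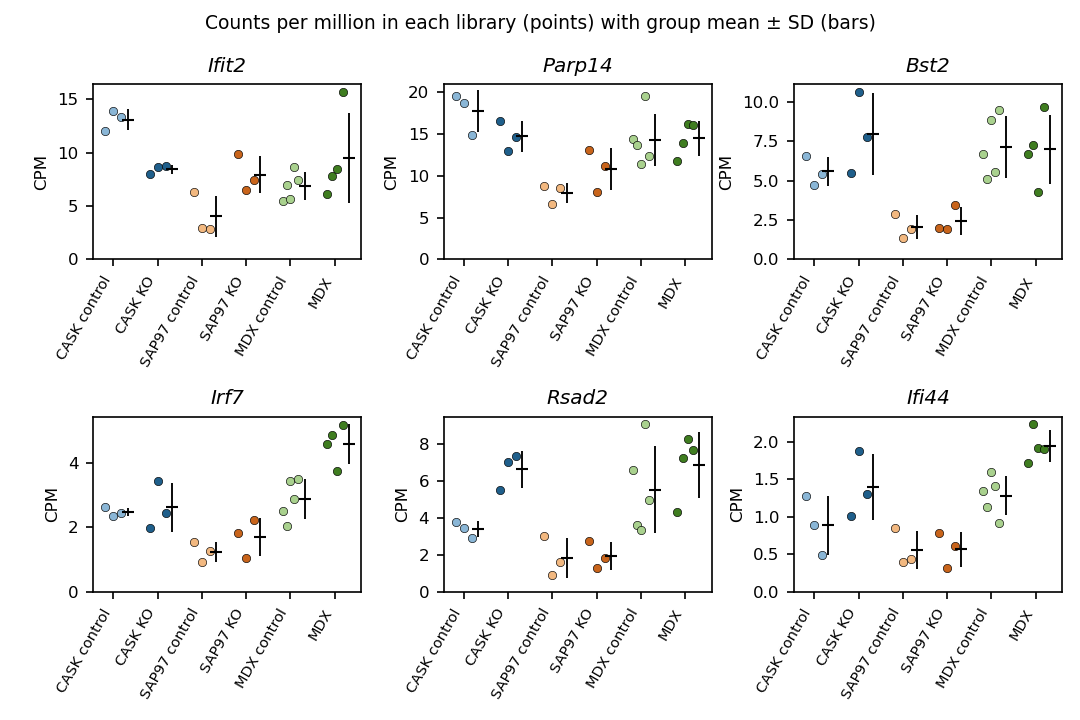
CPM of Ifit2, Parp14, Bst2, Irf7, Rsad2 and Ifi44 in each library (points) of the 6 groups, with the group mean ± SD beside them. Ifit2 is highest in CASK control, at 12.0 to 13.9 CPM, and Bst2 is at 1.37 to 3.44 CPM in the 6 SAP97 libraries.

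The second question was whether the loss of each protein changed the set in its own line. In CASK KO cardiomyocytes no gene of the set passed the test in edgeR (0 of 31 tested, against 0% of all genes), while 26 had a log2 fold change above 0 (52% of all genes) and 5 below, with a median of 0.26 against 0.01 for all genes. Of the targeted genes, Dlg1 was called in SAP97 KO (log2 fold change -2.29, edgeR adjusted p = 9.33e-04). Cask in CASK KO (-2.57, edgeR adjusted p = 0.1485) and Dmd in MDX (-1.52, edgeR adjusted p = 0.0680) were not. A count of 0 calls in the CASK and MDX lines therefore does not show that the set was unchanged. With the replicate number as a block, which treats same-numbered mice of this line as pairs, 11 of all genes were called and 0 of the set. At an unadjusted p under 0.05, 5 genes were higher in CASK KO (4.53% of all genes) and 1 was lower (4.31% of all genes). Among the tested genes of the set, groups did not overlap for 6 with the higher level in CASK KO (6.04% of all genes) and for 1 with the lower level (8.48%). Mx1, which was not tested, did not overlap either, with 1 to 3 counts in CASK control and 5 to 11 in CASK KO.

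Rsad2 had the smallest p. Its CPM were 5.50, 7.06 and 7.35 in CASK KO and 3.79, 3.43 and 2.94 in CASK control, so that all knockout libraries were higher, with a log2 fold change of 0.99 (SE 0.19, edgeR adjusted p = 0.205). DESeq2 called it (log2 fold change 0.97, adjusted p = 0.00888), the only call of the set by that tool in this line, where it called 0.394% of all genes with a p. Ifit2 went the other way, at 7.96, 8.64 and 8.70 CPM in CASK KO, all below CASK control (log2 fold change -0.61, SE 0.14, edgeR adjusted p = 0.268).

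Mx2, of the Mx family of GTPases, is annotated as a polymorphic pseudogene. It had CPM of 1.11, 1.69 and 0.838 in CASK KO and 0.777, 0.418 and 0.272 in CASK control (log2 fold change 1.31, SE 0.46, edgeR adjusted p = 0.451), and its groups did not overlap. Isg15 was at 1.01, 2.17 and 1.24 CPM and 1.04, 0.567 and 0.462 CPM, with CASK KO 1 below CASK control 1 (log2 fold change 1.10, SE 0.42, edgeR adjusted p = 0.502). Dhx58 (1.14) and Gbp3 (0.71) completed the 5 higher genes. By role, 14 of 16 antiviral effectors, both ISG15 genes, all 4 transcription factors, 3 of 4 sensors and 3 of 5 GTPases had a log2 fold change above 0.

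The 5 genes at an unadjusted p under 0.05 became 1 without CASK control 2, without CASK control 3 or without CASK KO 2, the library with the highest values of the set in this line. The value of Isg15 fell from 1.10 to 0.72 without CASK KO 2. In this comparison 12 of 12 tested leukocyte markers had a log2 fold change below 0 in CASK KO, with a median of -0.37. In contrast, 8 of 9 endothelial markers had one above 0, with a median of 0.32. The part of these cells in the values of the set was not tested.

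**Figure D5:**
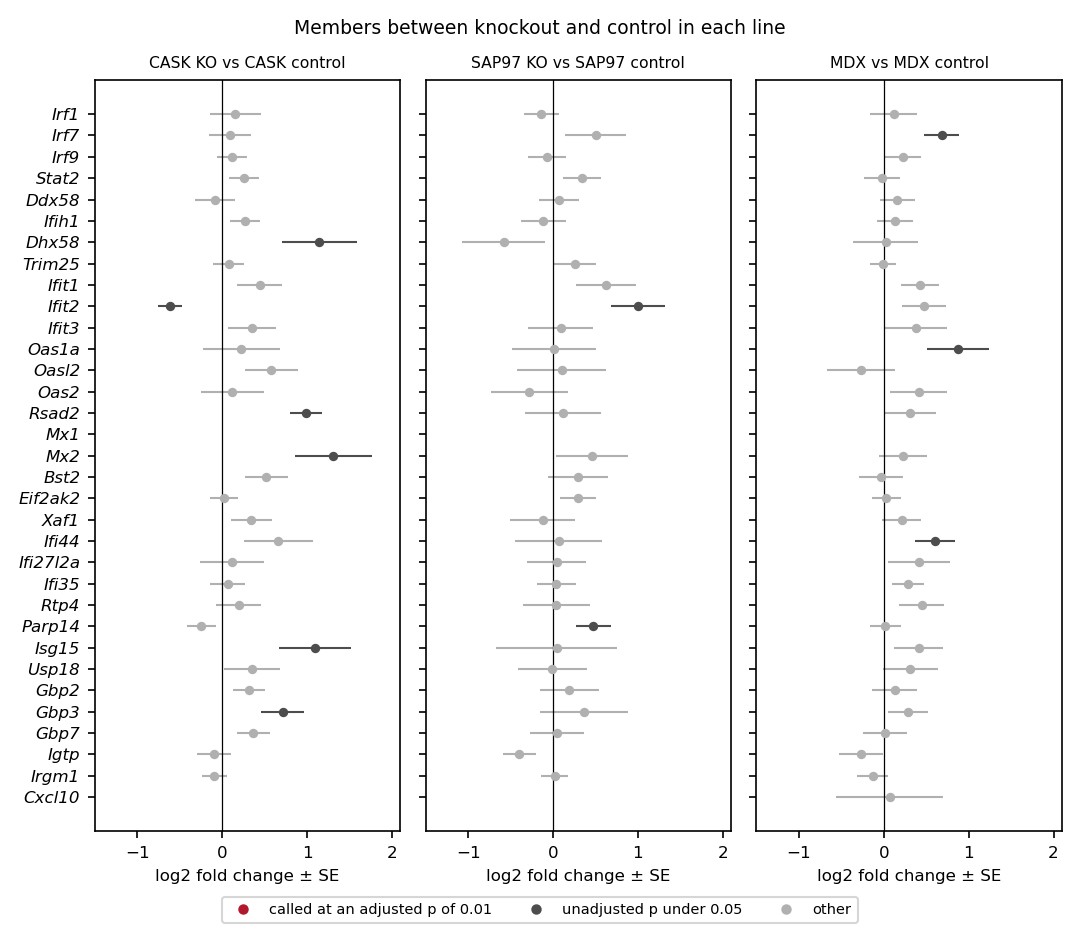
Log2 fold change of each tested gene (rows, grouped by role) between knockout and control in each of the 3 lines, with standard errors as bars. No point is red, as no gene of the set was called at an adjusted p of 0.01, and Ifit2 lies at -0.61 in CASK KO, 1.01 in SAP97 KO and 0.47 in MDX.

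In SAP97 KO cardiomyocytes no gene of the set was called either, by edgeR (0 of 31 tested, against 0.0204% of all genes) or DESeq2 (0). Of the 31, 23 had a log2 fold change above 0 (54.8% of all genes) and 8 below, and the median of 0.07 lay close to the 0.03 of all genes. At an unadjusted p under 0.05, 2 were higher (4.69% of all genes), Ifit2 and Parp14, and 0 were lower (3.28%). Ifit2 was at 9.85, 6.50 and 7.40 CPM in SAP97 KO, all above the 6.27, 2.96 and 2.85 CPM of its control, and was the 1 tested gene of the set whose groups did not overlap (6.09% of all genes), with a log2 fold change of 1.01 (SE 0.32, edgeR adjusted p = 0.610). Without the filter on low counts it was called (edgeR, adjusted p = 0.00856; 0.486% of all genes). Cxcl10, which was not tested in this line, did not overlap either, with 1 to 2 counts in SAP97 control and 2 to 5 in SAP97 KO. Parp14 was at 13.1, 8.09 and 11.1 CPM against 8.74, 6.57 and 8.51 CPM, which overlapped (log2 fold change 0.48, SE 0.20, edgeR adjusted p = 0.622).

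Genes of the set at low CPM in the SAP97 control mice were at low CPM in the knockouts too. Bst2 was at 1.98, 1.91 and 3.44 CPM in SAP97 KO (log2 fold change 0.29), Rsad2 at 2.76, 1.27 and 1.82 CPM (0.12) and Isg15 at 0.681, 0.177 and 0.578 CPM (0.04), each within or close to the range of its control. Standard errors in this line ranged from 0.16 to 0.72 over the set, with a median of 0.35. The sign of the median depended on single mice: it was 0.35 without SAP97 control 1, -0.12 without SAP97 control 2, -0.02 without SAP97 KO 1 and -0.02 without SAP97 KO 3. The 2 genes at an unadjusted p under 0.05 became 1 without SAP97 control 1, 2 or 3 or SAP97 KO 1 or 3, and 4 without SAP97 KO 2. Of 10 ventricular cardiomyocyte markers, 7 were lower in SAP97 KO (median -0.20, 3 at an unadjusted p under 0.05 in edgeR). Higher were 7 of 10 tested leukocyte markers (median 0.09) and 5 of 9 endothelial markers (0.06). So were 4 of 6 mural markers (0.28, 2 at an unadjusted p under 0.05) and 5 of 7 fibroblast markers (0.08, 1 such marker). The part of these cells in the values of the set was not tested.

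In MDX cardiomyocytes, 26 of 32 tested genes had a log2 fold change above 0 (48.2% of all genes) and 6 below, with a median of 0.22 against -0.01 for all genes. None was called by edgeR (0 of 32, against 0% of all genes) or DESeq2 (0). The edgeR fit of this line did not call Dmd either (log2 fold change -1.52, edgeR adjusted p = 0.0680). At an unadjusted p under 0.05, 3 were higher (1.28% of all genes) and 0 lower (1.44%). Irf7 was at 4.58, 4.85, 3.73 and 5.18 CPM in MDX replicates 2 to 5 and at 2.03 to 3.51 CPM in MDX control, so that the lowest MDX library lay just above the highest control (log2 fold change 0.68, SE 0.21, edgeR adjusted p = 0.9999). Ifi44, a cytoplasmic protein of the interferon alpha response, was at 1.72, 2.24, 1.91 and 1.91 CPM in MDX and 1.34, 1.12, 1.59, 1.42 and 0.920 CPM in MDX control, again without overlap (log2 fold change 0.60, SE 0.23, edgeR unadjusted p = 0.0249). These were the 2 genes of the set whose groups did not overlap (0.606% of all genes).

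Oas1a, which makes the oligoadenylates that activate RNase L, was at 0.824, 0.894, 0.597 and 1.01 CPM in MDX and 0.208, 0.516, 0.513, 0.661 and 0.351 CPM in MDX control (log2 fold change 0.88, SE 0.37, edgeR unadjusted p = 0.0357), with MDX 4 inside the range of the controls. By role, 14 of 16 antiviral effectors, both ISG15 genes and 3 of 4 transcription factors had a log2 fold change above 0, whereas the GTPases had a median of 0.02 and the sensors one of 0.08. Igtp, the most abundant GTPase of the set, was at 6.52, 5.78, 5.20 and 6.08 CPM in MDX and 5.42, 7.38, 4.67, 12.1 and 5.87 CPM in MDX control, with MDX control 4 far above the rest. Ifi27l2a was at 4.91, 8.46, 2.48 and 6.33 CPM in MDX and 3.54, 4.28, 6.66, 2.203 and 4.21 CPM in MDX control, with full overlap.

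Strain varied within this line, and so did the round of sequencing, since the study mentions repeated rounds for MDX control. Which libraries belong to which round is not given in the sources used here, so that no values within a round could be computed. Without the replicates 5 of both groups, which were on another background, the median was 0.16 and the value of Irf7 was 0.69 (edgeR unadjusted p = 0.0161). Without the replicates 4 and 5 of both groups, it was 0.84 for Irf7 (edgeR unadjusted p = 0.0270) and the median was 0.33. In both settings Irf7 was the 1 gene left of the 3 at an unadjusted p under 0.05, and 1 was also left without MDX control 5 or MDX 3. With MDX replicate 1 kept in, 0 were left and the value of Irf7 was 0.43. Of the tested leukocyte markers, 9 of 10 had a log2 fold change above 0 in MDX, with a median of 0.20, and 8 of 9 endothelial markers, with a median of 0.18. All 3 atrial cardiomyocyte markers had one above 0, with a median of 0.79 and 2 at an unadjusted p under 0.05, as did all 5 tested mural markers, with a median of 0.18 and 1 at an unadjusted p under 0.05. The part of these cells in the values of the set was not tested.

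The third question was whether the effects of the knockouts on the set differed from each other, tested as a difference between log2 fold changes in the fit of all 6 groups. Ifit2 was the gene with the smallest p for CASK KO against SAP97 KO, with a difference of -1.61 (SE 0.44, unadjusted p = 0.00155, edgeR adjusted p = 0.120), and for CASK KO against MDX, with a difference of -1.11 (SE 0.40, edgeR adjusted p = 0.564). Neither was called, and without the filter on low counts the first one was (difference -1.60, edgeR adjusted p = 0.00620; 0.405% of all genes). In the first case the 2 control groups lay farther apart, at 13.1 and 4.03 CPM, than the 2 knockout groups, at 8.43 and 7.92 CPM. Unequal effects on Ifit2 and unequal controls therefore cannot be told apart. By the genotypes followed here, only the controls of the CASK line carry Cre.

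For CASK KO against SAP97 KO, edgeR and DESeq2 each called 0 genes of the set (0.331% of all genes in edgeR), and at an unadjusted p under 0.05 Dhx58 had the higher effect in CASK KO (difference 1.75, SE 0.63, edgeR adjusted p = 0.382; 2.09% of all genes) and Ifit2 and Parp14 the lower (4.67% of all genes). Parp14 had a difference of -0.71 (SE 0.30, edgeR adjusted p = 0.568). The median difference of 0.25 was 0.03 without SAP97 control 1 and 0.05 without CASK KO 2, and the 1 higher gene became 2 without CASK control 1 and 3 without SAP97 control 2. For CASK KO against MDX, both tools again called 0 (0.0764% of all genes in edgeR), 1 gene was higher (3.09% of all genes) and 1 lower (3.5% of all genes) at an unadjusted p under 0.05, the median difference was 0.02 (-0.06 without CASK KO 2 or MDX 4), and the higher gene, Mx2, had a difference of 1.06 (SE 0.49, edgeR adjusted p = 0.733). The count of 1 higher gene became 0 without CASK control 2 or 3, CASK KO 2, MDX control 1, 3 or 5 or MDX 2, 3 or 4, and 2 without CASK control 1 or MDX control 2. For SAP97 KO against MDX, both tools called 0 (0.00637% of all genes in edgeR) and 0 had an unadjusted p under 0.05 (3.5% of all genes higher and 1.74% lower). The smallest p of that comparison belonged to Parp14 (0.42, SE 0.27, edgeR adjusted p = 0.877) and Oas1a (-0.90, SE 0.59, edgeR adjusted p = 0.877), and the median of -0.19 was 0.09 without SAP97 control 1. Each pair of these differences shares the mice of a line.

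The 3 CASK KO libraries held Bst2 at 5.45, 10.6 and 7.76 CPM, Parp14 at 16.5, 12.9 and 14.7 CPM and Irf7 at 1.96, 3.44 and 2.43 CPM, each overlapping with CASK control. In MDX, Bst2 was at 6.70, 7.26, 4.30 and 9.64 CPM, Parp14 at 11.8, 13.9, 16.2 and 16.0 CPM, Rsad2 at 4.30, 7.22, 8.27 and 7.66 CPM and Ifit2 at 6.09, 7.81, 8.45 and 15.7 CPM, each overlapping with MDX control. Irf7 was at 1.81, 1.06 and 2.23 CPM in SAP97 KO, overlapping with its control.

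Ifi44 was at 1.27, 0.896 and 0.489 CPM in CASK control, 1.01, 1.88 and 1.30 in CASK KO, 0.846, 0.390 and 0.430 in SAP97 control and 0.778, 0.318 and 0.607 in SAP97 KO. Oas1a was at 1.01, 0.358 and 0.435 CPM in CASK control, 0.543, 0.819 and 0.757 in CASK KO, 0.345, 0.390 and 0.265 in SAP97 control and 0.421, 0.247 and 0.318 in SAP97 KO. For both genes knockout and control overlapped in both lines. Oasl2 was at 1.13, 0.985 and 0.707 CPM in CASK control, 1.45, 1.67 and 1.05 in CASK KO, 2.08, 1.55, 1.97 and 1.83 in MDX and 1.13, 0.353 and 0.954 in SAP97 KO. Mx2 was at 0.564, 0.748 and 0.364 CPM in SAP97 control, 0.745, 0.671 and 0.838 in SAP97 KO, 1.01, 0.759, 1.48, 0.693 and 1.01 in MDX control and 1.04, 1.07, 1.19 and 1.29 in MDX. Knockout and control overlapped for both genes in these lines.

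Within groups, the genes of the set varied together only in part. After the group means were removed, the pairwise correlation of log2 CPM over the 21 libraries had a median of 0.292 over the 528 pairs of genes, with a range of -0.727 to 0.885, a description that the shared scaling and the shared cells of a library enter. Irf7 had the highest median correlation with the other genes (0.441), followed by Xaf1 (0.422) and Ifi44 (0.421). Oas2 (0.085), Igtp (0.088) and Ifi35 (0.104) had the lowest. Across the 21 libraries, the CPM of Bst2 spanned a 7.78-fold range, from 1.37 to 10.6, and that of Ifi27l2a a 5.77-fold range.

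A further 113 genes of the interferon pathway and its responses were listed, with earlier results of these data known. Of these, 85 were tested in the CASK line, 80 in the SAP97 line and 85 in the MDX line. None was called in edgeR, against 0%, 0.0204% and 0% of all genes. In CASK KO 56 had a log2 fold change above 0 (52% of all genes) and 29 below. At an unadjusted p under 0.05, 8 were higher (4.53% of all genes) and 3 lower (4.31%). The smallest p was that of Psmb10, a subunit of the immunoproteasome, at -0.64 (edgeR adjusted p = 0.339). In SAP97 KO 50 were above 0 (54.8% of all genes) and 30 below. Here 3 were higher (4.69% of all genes) and 1 lower (3.28%) at an unadjusted p under 0.05, led by Ifnlr1 at 1.10 (edgeR adjusted p = 0.585). In MDX 53 were above 0 (48.2% of all genes) and 32 below. At an unadjusted p under 0.05, 1 was higher (1.28% of all genes) and 0 lower (1.44%), and the smallest p was that of Samd9l at 0.43 (edgeR adjusted p = 0.9999).

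Between the control groups, 2 of these other genes were called. Of all genes, 1.68% were called for CASK against SAP97 control and 1.86% for CASK against MDX control. Iigp1, a GTPase of the same family as Igtp and Irgm1, averaged 13.5 CPM in CASK control, 41.2 CPM in SAP97 control and 40.9 CPM in MDX control, and was lower in CASK control than in SAP97 control (log2 fold change -1.61, edgeR adjusted p = 0.00812) and than in MDX control (-1.60, edgeR adjusted p = 0.00464). Myd88, the adaptor of Toll-like receptors, was at 5.32 CPM in CASK control and 3.27 CPM in MDX control (log2 fold change 0.70, edgeR adjusted p = 0.00775). Against MDX control, 66 of the 81 other genes tested had a log2 fold change below 0 in SAP97 control and 15 above (46.5% of all genes above), with a median of -0.43. At an unadjusted p under 0.05, 24 were lower (6.26% of all genes) and 0 higher (2.74%), and 0 were called in edgeR (0.0701% of all genes).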

How the data were processed

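The authors deposited raw counts, the number of read pairs of each gene. They removed ribosomal RNA reads with Bowtie2 (2.2.1 per the labels, 2.2.4 per the deposited summary), aligned the rest to GRCm38 with TopHat2 2.0.13 and counted with HTSeq 0.6.1, per the labels. A strand setting for the counting is not given in the sources used here. In the deposited table of all conditions the columns of 4 MDX libraries are out of order (60.7 to 68.5% of genes equal to the MDX comparison by identifier, 92.4 to 95.9% in the other libraries), so the counts of the 3 comparison tables were used. The 43 deposited per-library columns of normalized values or TPM, and the authors' columns of fold changes and p-values, were not used.

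Counts were tested with edgeR 4.0.16 (filterByExpr, TMM scaling, glmQLFit and glmQLFTest, two-sided) in R 4.3.3, each line on its own groups and all contrasts between lines in 1 fit of 21 libraries over 45449 genes whose counts changed little between annotation releases (ratio of at most 1.1 after 10 counts were added). Standard errors are the log2 fold change divided by the root of F. CPM are on 1 scale for all libraries. DESeq2 1.42.0 was an alternative, as were DESeq2 size factors, no filter, other sets of libraries and the replicate number as a block. The functions were tested on simulated data. Same-numbered mice of the CASK line deviated together from their group means (correlations of 0.301 to 0.553 across genes). No label states that they are pairs. The main test of that line took them as unpaired, and the block is given as an alternative. Each library is a separate mouse. Of the set, 27 genes had 10 counts or more in every library. Plots were drawn with matplotlib 3.10.9.

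The members and lists were chosen with earlier results of these data known. Values in every library are given for genes called in any comparison, the 2 with the smallest p in each, and the 3 highest and 3 lowest by TPM. The CPM of Isg15 were added after its values were seen, and the other genes are given by ranges, counts or group means.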

Additional observations from a re-analysis of the deposited data

Results flagged for a closer look

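In 3 of 64 pairs of a gene and a group that had 4 to 5 libraries and enough counts, 1 library lay far from the others by Dixon's criterion, which chance meets in about 1 of 20 groups. Oasl2 was at 5.07 CPM in MDX control 3, where the next library was at 1.79 CPM. Oas2 was at 1.15 CPM in MDX 5, with the next at 1.995 CPM, and Xaf1 at 1.73 CPM in MDX 4.

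MDX replicate 1, which was left out except in 1 alternative setting, had 0 counts for 19 of the 33 genes and 10 counts or more for 10. Of these 10, 6 lay above every MDX control library and 1 below. The limit of 10 counts was set in this library itself, so genes low in it could not enter these counts. Eif2ak2 and Irgm1, for example, had 0 counts there, whereas every MDX control library held at least 7.33 and 7.10 CPM. The share of all genes above or below every MDX control library was not computed. The 6 were Irf9 at 26.2 CPM, Stat2 at 7.65 CPM, Trim25 at 17.1 CPM, Oasl2 at 7.94 CPM, Rtp4 at 8.83 CPM and Gbp2 at 6.47 CPM. Only 34.5% of that library's read pairs lay in genes, compared with 65.3 to 77.1% in the others, and the part of this in the 6 values was not tested.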

How the results depend on the processing

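Over 30 settings, 90 results gave 1232 alternative values, of which 1099 counted as the same. For a named member this meant the same direction and side of the threshold, and for a count a change within 1.5 times. For a median it meant a shift within the SD of the library medians inside the groups, whatever its sign. Of the rest, 111 moved, 13 gained and 9 lost a call, and no called value changed sign. Of the median log2 fold changes, which have no test, 9 values in 3 comparisons changed sign (SAP97 KO, and the differences of CASK and MDX and of SAP97 and MDX), 8 of them without 1 mouse and 1 (-0.01, CASK and MDX) without the low count filter. All 712 values of named members kept their direction. The number of members called was 1 with DESeq2 for CASK KO (0.394% of all genes with a p). It was 1 without the low count filter for SAP97 KO (0.486% of all genes). With only the 3 control groups it was 1 for CASK against SAP97 control (110 of all genes called). Without the filter it was 1 for CASK against MDX control (694 of 33094 genes). For SAP97 against MDX control it was 4 with DESeq2 (0.127% of all genes with a p) and 2 without the filter (0.239% of all genes). For the CASK against the SAP97 effect it was 1 without the filter (0.405% of all genes). The cause of these changes was not tested. Leaving out 1 mouse at a time, the median log2 fold change was 0.20 to 0.34 for CASK KO, -0.12 to 0.35 for SAP97 KO, 0.12 to 0.27 for MDX, 0.28 to 0.73 (0 to 2 members called) for CASK against SAP97 control, -0.30 to -0.18 for CASK against MDX control, -0.88 to -0.57 for SAP97 against MDX control, and 0.0268 to 0.398, -0.06 to 0.09 and -0.37 to 0.0884 for the differences of effects of CASK and SAP97, CASK and MDX, and SAP97 and MDX.

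With the replicate number as a block, these medians were 0.28, 0.07, 0.20, 0.58, -0.16, -0.71, 0.28, 0.03 and -0.22 in the same order. For comparisons between lines, the block joins same-numbered mice of different lines, for which no pairing is known. The block called Bst2 between CASK and SAP97 control (3 members in place of 2) and changed no other call of a member at the adjusted threshold. At an unadjusted p under 0.05 it moved the counts from 8 to 10 for CASK against SAP97 control, from 5 to 2 for CASK against MDX control, from 3 to 2 for MDX and from 1 to 0 for the CASK against the MDX effect. Same-numbered mice did not deviate together in the SAP97 line (correlations of -0.34 to -0.009) or in all pairs of the MDX line (-0.091 to 0.758), so the numbers were not taken as pairs there, although both MDX replicates 5 share a strain and an age, and the SAP97 mice of the same number 2 or 3 an age.

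Counts over all genes depended on the tool. DESeq2 called 118, 46 and 19 genes for CASK KO, SAP97 KO and MDX, edgeR 0, 3 and 0, edgeR without the filter 182, 134 and 6, and edgeR in 1 fit of all groups 9, 6 and 7. With the block, edgeR called 11, 0 and 0. Between the controls edgeR called 263, 292 and 11 genes, DESeq2 563, 635 and 42, edgeR without the filter 496, 694 and 79, and the 3 control groups alone 110, 123 and 3. For the differences of effects the counts were 52, 12 and 1 in edgeR, 153, 48 and 13 in DESeq2 and 134, 83 and 28 without the filter, with 2 for the last under the block. Members with few counts, such as Mx1 and Cxcl10, limit what the depth can show.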
